A study of Mus musculus with 8 samples.

Results

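Granzymes A, B, K and M, perforin, cathepsin W and the transcription factors T-bet, Eomes and Runx3 were followed in peritoneal colon tumors of mice treated with a STING agonist. The 9 genes (Gzma, Gzmb, Gzmk, Gzmm, Prf1, Ctsw, Tbx21, Eomes and Runx3) were taken by symbol from the 750 immune-related genes of a NanoString nCounter mouse panel. Cytotoxic T cells and natural killer (NK) cells kill by releasing granules onto a target cell. Perforin opens the target cell's membranes, granzymes are serine proteases that pass through and cleave proteins in the target cell, and T-bet, Eomes and Runx3 are transcription factors that switch this granule program on in lymphocytes. In tumors, transcripts of these genes are commonly read as a sign of cytotoxic lymphocytes.

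MC38 cells, a murine colon cancer line, had been implanted into the peritoneum of wild-type male C57BL/6 mice aged 7 to 8 weeks, and injections into the peritoneal cavity began 7 days later. The STING agonist group received 2 injections of 15 µg RR-CDA, a cyclic dinucleotide that activates the innate immune adaptor STING, and the PBS group received phosphate-buffered saline by the same route. RNA of whole tumor tissue was collected 10 days after the first injection from 4 mice of each group, in 2 pooled experiments whose tumors were not told apart in the sources used here. In this assay color-coded probes are hybridized to each transcript and counted without amplification.

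Each PBS-treated tumor had 241724 to 403150 counts over the 750 genes, and each STING agonist-treated tumor had 241506 to 414698. Counts were divided by a scaling factor from 20 housekeeping genes to give normalized counts, which compare tumors for 1 gene but not different genes with each other, since probes differ in efficiency. The background of a tumor was the mean plus 2 SD of its 8 negative control probes. Gzma, Gzmb, Prf1 and Eomes lay above it in 8 of 8 tumors, Ctsw in 7, Gzmk in 5, Tbx21 in 4, Runx3 in 3 and Gzmm in 1. The lowest count in every file was 1, so an undetected transcript cannot be told from 1 count. PBS controls 2 and 4 differed by less than the sampling noise (chi-square 0.404 per degree of freedom over 358 genes, against 5.89 to 12.6 for the remaining 11 pairs from the same group), and their mean was counted as 1 sample, which leaves n = 3 PBS and n = 4 STING agonist samples. Reported p-values measure the spread between these samples.

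The tumor STING agonist 4 carried transcripts of hepatocytes. All 14 hepatocyte markers on the panel were highest there, and their summed normalized count was 1973, against 75.8 to 151 in the other samples. Ambp, 1 of them, had 762 normalized counts in STING agonist 4 and 2.44 to 11.7 elsewhere. Without this tumor 89 (11.9%) instead of 143 panel genes had an unadjusted p under 0.05, and the summary of the 9 genes and the gene counts of the lists are also given without it. The part of hepatocyte RNA in the values was not tested.

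None of the 9 genes differed between the groups beyond the spread between samples. After Benjamini-Hochberg adjustment, 0 of 9 had a p under 0.05 in edgeR's quasi-likelihood test, where 0 of all 750 genes (0%) passed and the lowest adjusted p on the panel was 0.171. At an unadjusted p under 0.05, 0 of 9 passed, against 143 of 750 genes (19.1%), 17.7% of the panel being higher and 1.33% lower in treated tumors. The groups overlapped in all 9 genes, while they did not overlap in 137 panel genes (18.3%). With the Wald test of DESeq2, 52 panel genes but again 0 of the 9 had an adjusted p under 0.05. The log2 fold changes, STING agonist against PBS, ran from -0.37 for Prf1 to 0.80 for Ctsw. Their median was 0.26, beside 0.21 over the whole panel, in which 531 genes had a value above 0. Without STING agonist 4, 0 of 9 genes passed before or after adjustment, and the log2 fold changes ran from -0.46 for Prf1 to 0.75 for Ctsw.

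**Figure D1:**
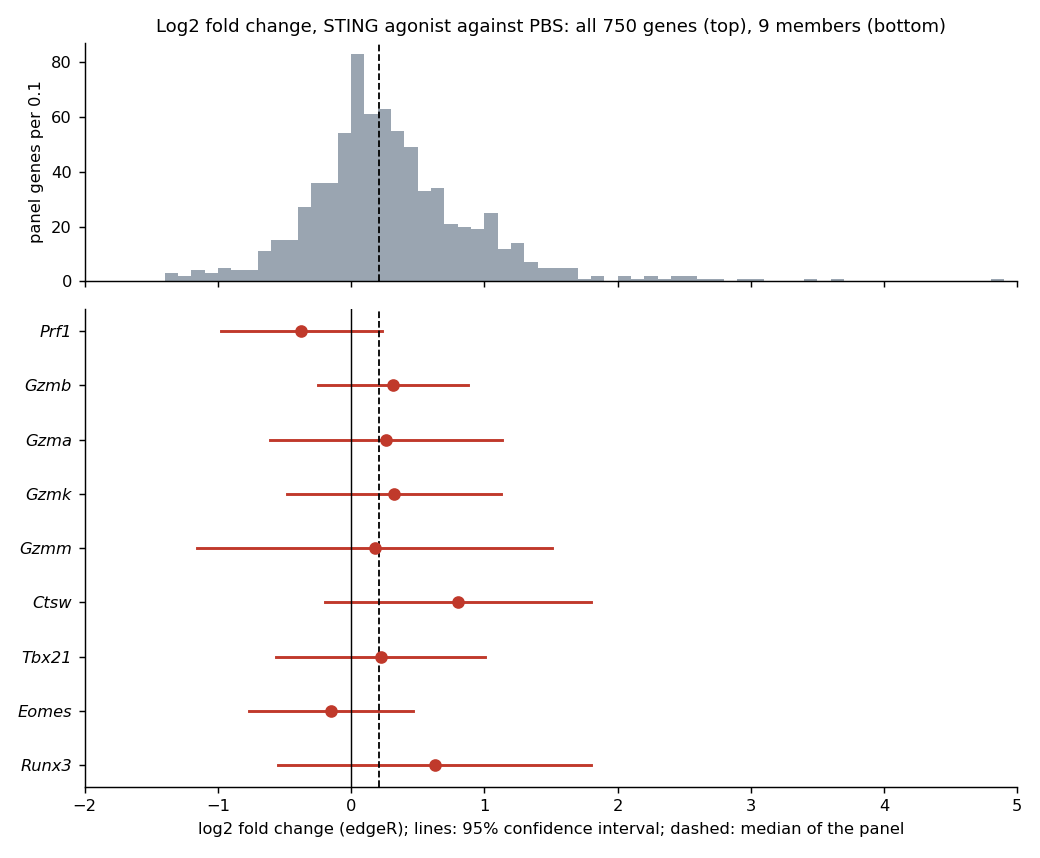
Log2 fold changes (STING agonist against PBS, edgeR) of all 750 panel genes as a histogram (top) and of the 9 genes as points with 95% confidence intervals (bottom, n = 3 and 4 samples); the dashed line is the panel median of 0.21. Every interval of the 9 genes spans 0, and Prf1 and Eomes are the 2 genes with points below 0.

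The scale of comparison mattered for the sign of the smaller values. Scaling to the bulk of the panel moved the median of all genes from 0.21 to -0.02 (TMM normalization), -0.04 (size factors of DESeq2) and 0.01 (total count). Of the 9 genes, 7 lay above 0 with housekeeping scaling, and 5, 4 and 6 did so under these alternatives. Relative to the panel median, Prf1 stood at -0.59 with housekeeping scaling and -0.61 with TMM normalization, and Eomes at -0.36 and -0.39. Ctsw stood 0.59 and 0.62 above the median, and Runx3 0.41 and 0.45 above it. Gzma, Gzmm and Tbx21 lay within 0.05 of the median under both scalings.

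Prf1 encodes perforin, the pore-forming protein of the granule. Its probe (NM_011073.2) gave 229, 226 and 232 normalized counts in PBS 1, the averaged PBS 2 and 4, and PBS 3, and 153, 105, 241 and 206 in STING agonist 1, 2, 3 and 4. The controls were nearly equal, 3 of 4 treated tumors lay below all of them, and STING agonist 3 lay above all of them. Means were 229 ± 2.95 (SD, n = 3) and 176 ± 59.8 (SD, n = 4), a 0.771-fold level. The log2 fold change was -0.37 (SE 0.27, 95% confidence interval -0.98 to 0.23, adjusted p = 0.475, edgeR). A two-sided exact permutation test over the 35 arrangements of the samples gave p = 0.229. With 3 against 4 samples this test cannot give a p under 0.05, for Prf1 or any other gene here. The coefficient of variation was 1.29% in the controls and 33.9% after treatment. A count of about 205, the mean over tumors, carries a counting error of 6.98%, so the controls lay closer together than counting error alone would place them. Prf1 was the 1 gene of the 9 whose unadjusted p went under 0.05 on a scaling to the bulk of the panel, in 2 of the 3 such scalings. Its log2 fold changes were -0.63 (TMM normalization) and -0.65 (DESeq2 size factors; both adjusted p = 0.271, edgeR; 0.260 to 0.770 over all alternatives), and -0.58 with total count, where it did not pass. Single treated tumors moved Prf1 both ways: the log2 fold change was -0.19 without STING agonist 2 and -0.56 without STING agonist 3, when the groups no longer overlapped.

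Gzmb encodes granzyme B, which cleaves after aspartate, with Bid among its targets in the target cell. It measured 166, 242 and 238 normalized counts in PBS 1, PBS 2 and 4, and PBS 3, and 291, 169, 309 and 301 in STING agonist 1 to 4. In 3 of 4 treated tumors Gzmb was above every control, and STING agonist 2 was level with PBS 1, the lowest control. The means of 215 ± 43.1 (SD, n = 3) and 267 ± 66.1 (SD, n = 4) gave a log2 fold change of 0.31 (SE 0.25, 95% confidence interval -0.25 to 0.88, adjusted p = 0.535, edgeR; exact permutation test, p = 0.343). The interval on the fold scale reached from 0.840 to 1.84. Without STING agonist 2 the groups did not overlap and the log2 fold change was 0.48 (adjusted p = 0.236, edgeR; 0.236 to 0.948 over all alternatives), an unadjusted p under 0.05, and without PBS 1 it was 0.16. On the bulk scalings Gzmb stood at 0.05 (TMM normalization) and 0.04 (DESeq2 size factors).

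Granzyme A, a tryptase of the same granules, is encoded by Gzma. PBS 1 had 123 normalized counts, PBS 2 and 4 had 65.3 and PBS 3 had 65.6, and the treated tumors had 117, 50.1, 145 and 93.5. PBS 1 was above 3 of 4 treated tumors and STING agonist 2 was the lowest of all samples, so the groups overlapped over most of their range. The log2 fold change was 0.26 (SE 0.38, 95% confidence interval -0.61 to 1.13, adjusted p = 0.795, edgeR; exact permutation test, p = 0.686) and turned to -0.01 (TMM normalization) and -0.03 (DESeq2 size factors). Single samples set much of this value, which was 0.63 without PBS 1 and 0.0383 without STING agonist 3.

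The promoters of these 3 genes are shown because T-bet, Eomes and Runx3, measured beside them, belong to families that bind short motifs. The set of RefSeq promoter windows used here (build GRCm38.p6) held 8 of the 9 genes, Ctsw being the exception, with a pair of windows each for Gzmm and Runx3. The 250 bases before the transcription start were searched on both strands for TGTGGT, bound by RUNX factors, and GTGTGA, the core of a T-box site, and matches are in capitals. No match overlapped another.
Prf1, chr10:61297586-61297835, + strand: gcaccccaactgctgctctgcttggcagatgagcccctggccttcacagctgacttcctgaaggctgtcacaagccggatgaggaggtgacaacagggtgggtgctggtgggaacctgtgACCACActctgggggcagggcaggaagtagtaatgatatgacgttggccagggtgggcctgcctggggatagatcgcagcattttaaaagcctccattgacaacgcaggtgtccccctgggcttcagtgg
Gzmb, chr14:56262335-56262584, - strand: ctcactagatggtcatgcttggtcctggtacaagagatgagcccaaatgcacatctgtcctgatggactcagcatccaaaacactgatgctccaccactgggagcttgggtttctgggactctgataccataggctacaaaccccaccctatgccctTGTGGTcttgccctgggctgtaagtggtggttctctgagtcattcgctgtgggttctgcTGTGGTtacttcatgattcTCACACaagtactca
Gzma, chr13:113100982-113101231, - strand: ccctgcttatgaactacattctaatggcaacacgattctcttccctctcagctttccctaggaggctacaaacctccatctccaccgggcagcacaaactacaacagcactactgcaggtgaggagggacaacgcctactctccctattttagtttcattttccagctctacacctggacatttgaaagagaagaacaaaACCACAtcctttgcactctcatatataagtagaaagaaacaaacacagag
Gzmb held 2 RUNX matches and 1 T-box match, and Prf1 and Gzma held 1 RUNX match each, on the opposite strand. Of the 8 genes with a window, 5 (Gzma, Gzmb, Gzmm, Prf1 and Runx3) held the RUNX letters and 3 (Gzmb, Gzmk and Gzmm) the T-box letters, in 5 and 3 of their 10 windows. Among all 32851 promoter windows of the same length, 14.0% held the RUNX letters and 12.3% the T-box letters. A match is a run of letters and says nothing of binding in these tumors.

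Gzmk, which lies next to Gzma on chromosome 13, encodes another tryptase, granzyme K. Its normalized counts were 10.2, 5.83 and 8.65 in the PBS samples and 14.0, 9.78, 10.2 and 7.94 in STING agonist 1 to 4, on raw counts of 4 to 12. STING agonist 1 lay above the highest control, STING agonist 3 exceeded it by under 1 normalized count, and STING agonist 2 and 4 lay among the controls. The log2 fold change was 0.32 (SE 0.35, adjusted p = 0.712, edgeR; exact permutation test, p = 0.343). Gzmm encodes granzyme M, which prefers to cleave after methionine and is typical of NK cells. Its values were 0.925, 4.66 and 6.48 in the PBS samples and 3.50, 2.44, 6.13 and 6.18 in the treated tumors. The 0.925 of PBS 1 stands for a single count. Every treated tumor lay between the lowest and the highest control. Gzmm was above background in 1 tumor, and its sign was not stable. The log2 fold change was 0.18 (SE 0.59, adjusted p = 0.913, edgeR), -0.27 without PBS 1, 0.80 without PBS 3, -0.01 without STING agonist 4, and -0.02, -0.04 and -0.02 with TMM normalization, size factors of DESeq2 and total count.

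Ctsw encodes cathepsin W, a cysteine protease made mainly by cytotoxic T cells and NK cells. It had the highest log2 fold change of the 9 genes. Normalized counts were 22.2 in PBS 1, 11.7 in PBS 2 and 4, 36.02 in PBS 3, and 58.4, 34.2, 27.6 and 45.0 in STING agonist 1 to 4. STING agonist 1 and 4 exceeded every control, whereas STING agonist 2 and 3 lay below PBS 3. The mean went from 23.3 ± 12.2 (SD, n = 3) to 41.3 ± 13.5 (SD, n = 4), 1.77-fold, and the log2 fold change was 0.80 (SE 0.44, 95% confidence interval -0.19 to 1.80, adjusted p = 0.356, edgeR; exact permutation test, p = 0.171). PBS 3 decided much of this: without it the groups did not overlap and the log2 fold change was 1.27 (adjusted p = 0.201, edgeR), and without PBS 2 and 4 it was 0.50. With all 8 tumors as separate samples it was 0.999 (adjusted p = 0.178, edgeR; 0.178 to 0.621 over all alternatives), an unadjusted p under 0.05 that counts controls 2 and 4 as independent. On the panel, 131 of 750 genes had a larger log2 fold change than Ctsw.

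**Figure D2:**
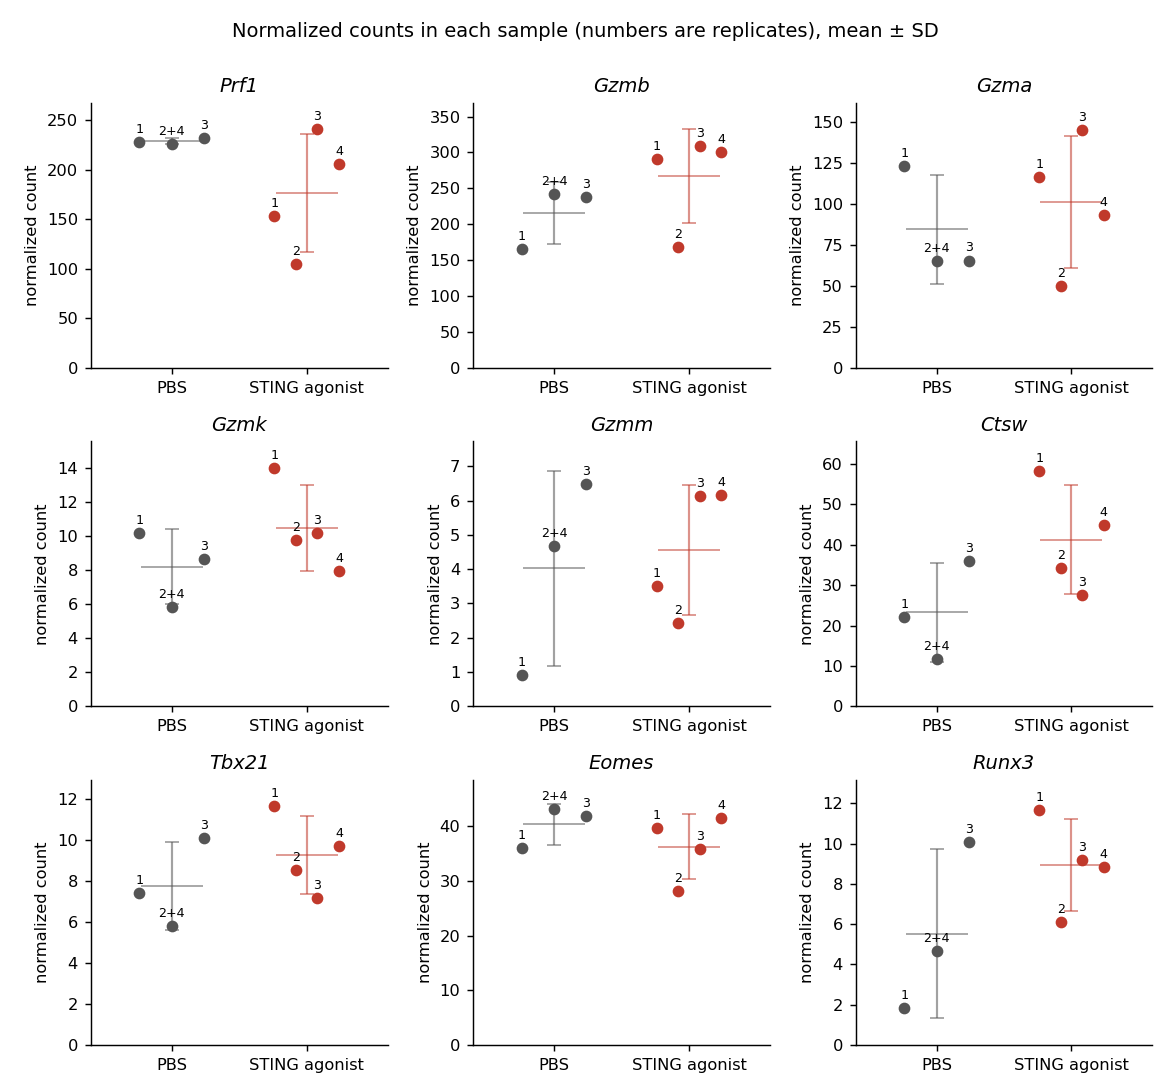
Normalized counts (y axis, from 0, a scale of its own per gene) of the 9 genes in each PBS sample (grey, n = 3, with controls 2 and 4 averaged) and STING agonist sample (red, n = 4); points carry replicate numbers, and horizontal lines with bars are the mean ± SD. The groups overlap in every panel, Prf1 values of the controls lie at 226 to 232, and STING agonist 2 is the lowest treated sample in 6 of the 9 genes.

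Tbx21 encodes T-bet, the T-box factor that drives interferon-gamma and granule genes in T cells and NK cells. It had 7.40, 5.83 and 10.1 normalized counts in the PBS samples and 11.7, 8.56, 7.15 and 9.71 in the treated tumors. One treated tumor, STING agonist 1, lay above all controls, and the others lay among them. The log2 fold change was 0.22 (SE 0.34, adjusted p = 0.851, edgeR; exact permutation test, p = 0.40), close to the panel median, and it was -0.01 with the size factors of DESeq2. Eomes encodes the second T-box factor of the program, which supports memory T cells and mature NK cells, and was the transcription factor above background in all tumors. It gave 36.1, 43.1 and 41.8 in the PBS samples and 39.7, 28.1, 35.8 and 41.5 in STING agonist 1 to 4. STING agonist 2 and 3 lay below every control, the latter by under 1 normalized count, and none of the treated tumors lay above every control. Means of 40.3 ± 3.74 (SD, n = 3) and 36.3 ± 5.93 (SD, n = 4) gave a log2 fold change of -0.15 (SE 0.27, 95% confidence interval -0.77 to 0.47, adjusted p = 0.841, edgeR; exact permutation test, p = 0.286). With 1 tumor left out it ran from -0.22 without PBS 1 to -0.0480 without STING agonist 2. On scaling to the panel the value was -0.41 (TMM normalization) and -0.42 (DESeq2 size factors), and the treated tumors all lay below the controls. How many panel genes separated in this way on these scalings is not given here. Panel genes lower at an unadjusted p under 0.05 (edgeR) numbered 10 with housekeeping scaling, 40 with TMM normalization and 45 with DESeq2 size factors. The adjusted p of Eomes was 0.399 at the lowest (edgeR), and up to 0.958 over all alternatives.

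Runx3 encodes a RUNX factor that silences Cd4 and supports the cytotoxic program in CD8 T cells. The PBS samples had 1.85, 4.66 and 10.1 normalized counts, the widest relative spread of the 9 genes, and the treated tumors had 11.7, 6.11, 9.20 and 8.82. The controls were unlike each other, and 3 of 4 treated tumors lay between the lowest and the highest of them. The log2 fold change of 0.63 (SE 0.52, 95% confidence interval -0.55 to 1.80, adjusted p = 0.554, edgeR; exact permutation test, p = 0.229) moved with single controls. Without PBS 3 the groups did not overlap and the value was 1.47 (adjusted p = 0.186, edgeR; 0.186 to 0.872 over all alternatives), an unadjusted p under 0.05. Without PBS 1 it was 0.23. Runx3 was above background in 3 tumors, and its mean count of 7.13 carries a counting error of 37.5%.

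Within the treated group the 9 genes did not share one order. STING agonist 2 was the lowest of the 4 treated samples in Gzma, Gzmb, Gzmm, Prf1, Eomes and Runx3. STING agonist 1 was the highest in Gzmk, Ctsw, Tbx21 and Runx3, STING agonist 3 in Gzma, Gzmb and Prf1, and STING agonist 4 in Gzmm and Eomes. Over the 7 samples, Pearson's r of log2(normalized count + 1) among the 5 genes that averaged 20 counts or more was highest for Prf1 and Eomes (0.71) and lowest for Prf1 and Ctsw (-0.41). After the group means were removed, Gzmb and Eomes had r = 0.92, Gzmb and Prf1 0.77, and Gzma and Prf1 0.71. Rank correlations over the 7 samples were 0.18 for Prf1 and Eomes, 0.11 for Gzmb and Eomes (r = 0.59), 0.21 for Gzmb and Prf1 (r = 0.37) and 0.57 for Gzma and Prf1 (r = 0.48). These are descriptions of 7 samples that share their scaling factors, and the low values of STING agonist 2 enter each of them.

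Among the 517 panel genes averaging 20 counts or more, Prf1 was most like Cxcl13 (r = 0.96 over 7 samples), Ctsg and Ctla4 (both 0.88). Gzmb was most like Tmed1 (0.97), Tnfrsf12a (0.96) and Klra4 (0.95), and Gzma like Psen2 (0.89), Traf6 and Tfeb (both 0.79). Ctsw followed Ccl4, Cfp and Emr1 (each 0.98), the last of which encodes the macrophage antigen F4/80. For Eomes, Hcst (0.92) and Ltbr (0.90) were among the 3 nearest. With 7 samples and over 500 genes some high correlations arise by choice alone, and with group means removed 5 of the 15 genes most alike were still among the 3 nearest.

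Whole tumor tissue was measured, so a value cannot tell fewer or more cytotoxic cells from less or more RNA per cell. Genes of the T cell receptor complex and coreceptors gave a reference within the same tumors. Their summed normalized count was 246, 168 and 277 in the PBS samples and 537, 287, 319 and 491 in STING agonist 1 to 4, every treated tumor lying above every control. Cd3g was the most significant of these 15 genes (log2 fold change 1.51, SE 0.47, adjusted p = 0.181, edgeR), followed by Cd8a (1.26, SE 0.48) and Cd3e (1.18, SE 0.46). Cd8b1 had 1.04 (SE 0.45) and Cd4, with a mean count of 5.50, had -0.08 (SE 0.64), which took the opposite sign in several settings. In all, 5 of 15 (33.3%, against 19.1% of the panel) had an unadjusted p under 0.05, all higher, with a median of 0.67, but without STING agonist 4 only 1 did, when the panel had 11.9%.

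The log2 ratio of each gene to the 15 T cell receptor genes was taken in every sample. It is log2(normalized count + 1) of the gene minus the mean of that value over the 15 genes. Each of the 15 thus has equal weight, unlike in the sums above. Only 10 of the 15 had a mean count above 8.62, the average background of the tumors, so genes near background weigh as much as the rest. For Prf1 it was 4.22, 4.78 and 4.004 in the PBS samples and 2.95, 3.04, 3.90 and 3.34 in the treated tumors. All 4 treated tumors lay below all controls, and the means differed by -1.03 (SDs 0.40 and 0.43). For Eomes the ratio was 1.59, 2.42 and 1.56 in the PBS samples and 1.03, 1.18, 1.18 and 1.06 in the treated tumors. Here too the treated tumors lay below all controls, by -0.74 on average (SDs 0.49 and 0.08). These were 2 of the 9 genes, while 101 of 735 panel genes outside the reference (13.7%) behaved in this way, and 0 of 9 lay above all controls against 2.04% of the panel. Of the 9 genes, 7 had a lower mean ratio after treatment, the median being -0.29 beside -0.36 for the panel, and Ctsw (0.29) and Runx3 (0.21) had a higher one. Leaving a sample out cannot undo such a separation, so only the size of the difference was informative. With each sample left out in turn it ran from -1.22 to -0.80 in Prf1 and from -0.89 to -0.46 in Eomes. Both values nearest 0 came without PBS 2 and 4. Of the other genes, Gzma, Gzmk, Ctsw and Tbx21 kept the sign of their ratio and 3 did not. The Runx3 ratio was -0.34 without PBS 1 and -0.11 with a pseudocount of 20, while without PBS 2 and 4 Gzmb (0.0344) and Gzmm (0.13) were above 0. The pseudocount of 20 also brought Prf1 to -0.70, Eomes to -0.41, Gzma to -0.11 and Gzmb to -0.03. The number of genes with all treated tumors below all controls could only stay or rise with 1 sample left out. It was 2 to 5 of 9: 5 without PBS 1 (Gzmm, Tbx21 and Runx3 besides, 26.3% of the panel), 3 without STING agonist 2 (Tbx21 besides, 30.2%) and 2 otherwise.

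Ptprc, which encodes the pan-leukocyte antigen CD45, had 108, 42.0 and 111 normalized counts in the PBS samples and 257, 166, 140 and 267 after treatment (log2 fold change 1.24, SE 0.38, adjusted p = 0.181, edgeR; 1.10 without STING agonist 4). Relative to Ptprc all 9 genes were lower in treated tumors, by -1.76 for Prf1 to -0.44 for Ctsw. In Gzmk, Prf1, Tbx21 and Eomes, 4 of 9 genes, the treated tumors lay below all controls. That share is the background of this comparison, since 329 of 749 panel genes (43.9%) did the same and the panel median was -1.09; 0 of 9 lay above all controls, against 0.668% of the panel. With 1 sample left out all 9 stayed lower, though without PBS 2 and 4 Runx3 came to -0.0677, Gzmm to -0.38 and Gzmb to -0.47. The count of 4, which leaving a sample out could not lower, ran from 4 to 7, with 7 without PBS 1 (panel 69.4%) and 6 without STING agonist 3 (panel 68.0%). How far more leukocytes of other kinds enter this ratio was not tested.

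**Figure D3:**
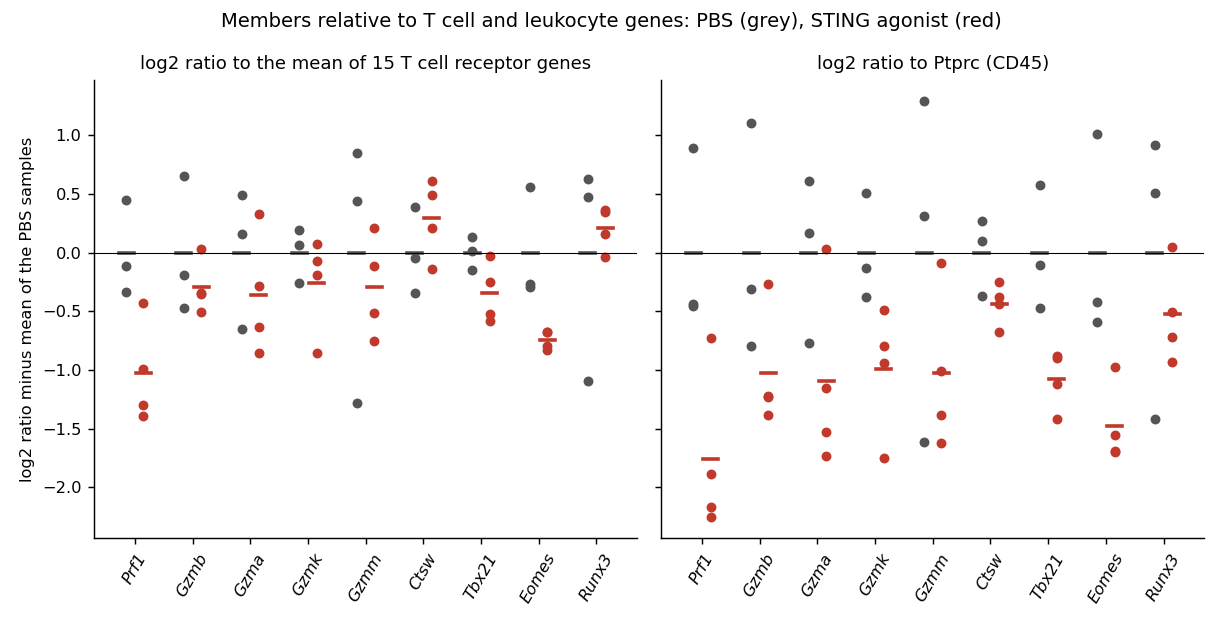
Log2 ratio of each of the 9 genes to the mean log2 value of 15 T cell receptor genes (left) and to Ptprc (right). Values are given for each sample, minus the mean of the PBS samples. Grey points are PBS samples (n = 3), red points STING agonist samples (n = 4), and short lines are group means. Red points lie below all grey points for Prf1 and Eomes on the left, at mean differences of -1.03 and -0.74, and for 4 genes on the right.

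Genes that surround the granule program were described in the same fit, in which 0 genes passed after adjustment and 19.1% of the panel had an unadjusted p under 0.05. NK cell receptors and markers had 4 of 22 genes with an unadjusted p under 0.05, all higher, a share of 18.2%, and a median log2 fold change of 0.12. Slamf7 (1.54, SE 0.48), Klrc1 (1.06, SE 0.37) and Klra2 (1.33, SE 0.47) led them, while Ncr1, the NKp46 receptor that marks NK cells, stood at 0.10 (SE 0.32) and at -0.12 with TMM normalization. Whether NK cells or other cells carried the leading transcripts was not tested. The summed NK list was 836, 598 and 856 in the PBS samples and 1493, 803, 921 and 1483 after treatment, with STING agonist 2 again the lowest treated tumor. Cytokines, receptors and STAT factors that induce the cytotoxic program had 4 of 26 genes with an unadjusted p under 0.05, all higher (15.4%, median 0.25). Among them Il27, on counts below background, stood at 1.31 (SE 0.40, adjusted p = 0.198, edgeR). Other lymphocyte transcription factors had 1 of 17 genes higher and 1 lower (median 0.16). These were Runx1, a paralog of Runx3, at 0.73 (SE 0.21) and Gfi1 at -1.12 (SE 0.33), ahead of Bcl6 at 0.49 (SE 0.34), Foxp3 at 0.85 (SE 0.69) and Gata3 at 0.30 (SE 0.28). The mean count of Foxp3 was 3.75, below the average background.

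Of the granule membrane proteins, death ligands and granzyme targets, 1 of 17 genes had an unadjusted p under 0.05 (median 0.23). It was Tnfsf10, the death ligand TRAIL, at 1.06 (SE 0.26, adjusted p = 0.171, edgeR), and its groups did not overlap. Fasl, the second death ligand of cytotoxic cells, stood at 0.30 (SE 0.59) on a mean count of 5.75. The granzyme B substrate Bid stood at 0.29 (SE 0.15). Lymphocyte attraction and activation markers had 3 of 13 genes higher (median 0.06), namely Cd69 (1.33, SE 0.34), Ccl5 (0.63, SE 0.20) and Xcl1 (1.59, SE 0.54), in each of which all treated tumors lay above all controls. The other 10 genes of this list did not pass (23.1% passing). Of the 13 genes, 8 lay above 0 and 5 below it, Tnfrsf9 (-0.44, SE 0.40) and Tigit (-0.38, SE 0.31) being the lowest. Without STING agonist 4, when 11.9% of the panel passed, the counts were 4 of 22 for NK cells, 3 of 26 for the inducing genes, 2 of 17 for the transcription factors, 1 of 17 for the death genes and 3 of 13 here.

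Markers of other cell types were read in the same fit, beside the same 19.1% of the panel. Mast cell markers, whose granules hold other proteases, had 0 of 5 genes with an unadjusted p under 0.05 (median -0.50), with Ms4a2 at -0.92 (SE 0.55), Cma1 at -0.64 (SE 0.53), Fcer1a at -0.37 (SE 0.35) and Kit at 0.14 (SE 0.43, and -0.09 with TMM normalization). The mean count of Ms4a2 was 3.75, below the average background. Plasmacytoid dendritic cell markers, of interest because these cells can express granzyme B, had 3 of 5 genes higher (median 0.62), Bst2 at 0.46 (SE 0.17), Tlr9 at 1.16 (SE 0.43) and Irf7 at 0.62 (SE 0.24). The lowest of the 5 stood at -0.08. Bst2 averaged 5006 counts per tumor, and whether other cells carried these transcripts was not tested. Myeloid markers had 3 of 9 genes higher (median 0.66), Itgax at 2.02 (SE 0.49), Ccr2 at 1.48 (SE 0.40) and Emr1 at 1.29 (SE 0.43). B cell markers had 1 of 8 higher (median 0.20), Blnk at 0.95 (SE 0.32), with Cd79b at 0.34 (SE 0.39) and Cr2 at 0.36 (SE 0.59). Cr2 too lay below the average background, with a mean count of 3.5. Hepatocyte markers had 2 of 14 higher (median 2.23), Ambp at 4.88 (SE 1.95) and F12 at 2.51 (SE 1.09), with Hamp at 3.50 (SE 1.55), all 3 highest in STING agonist 4. Without that tumor (panel 11.9%) the counts were 2 of 5 for plasmacytoid dendritic cells, 3 of 9 for myeloid cells, 1 of 8 for B cells, 0 of 5 for mast cells and 1 of 14 for hepatocytes. The part of these cell types in the values of the 9 genes was not tested.

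**Figure D4:**
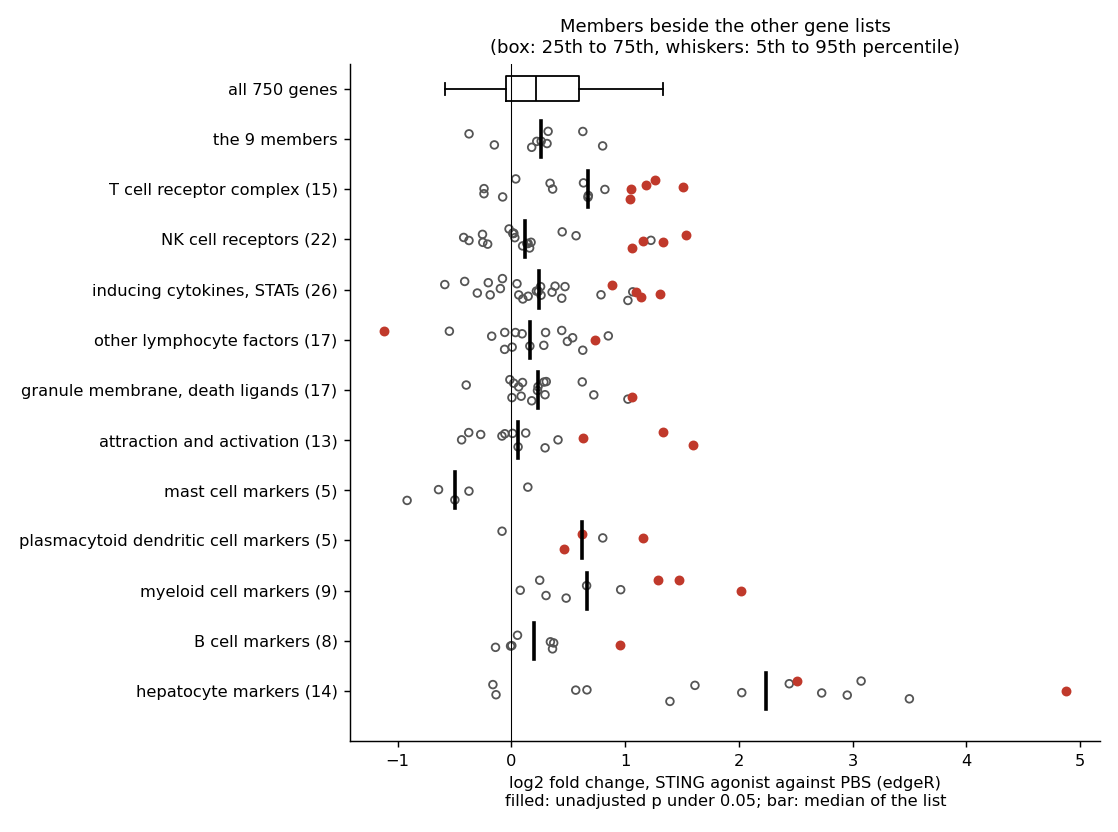
Log2 fold changes (STING agonist against PBS, edgeR) of the 9 genes and of the genes of 11 lists, number of genes in brackets, with all 750 genes as a box; filled red points have an unadjusted p under 0.05, open points do not, and black bars are medians. None of the 9 genes is filled, and their median of 0.26 lies near the 0.21 of the panel, whereas the T cell receptor list has a median of 0.67.

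**Figure D5:**
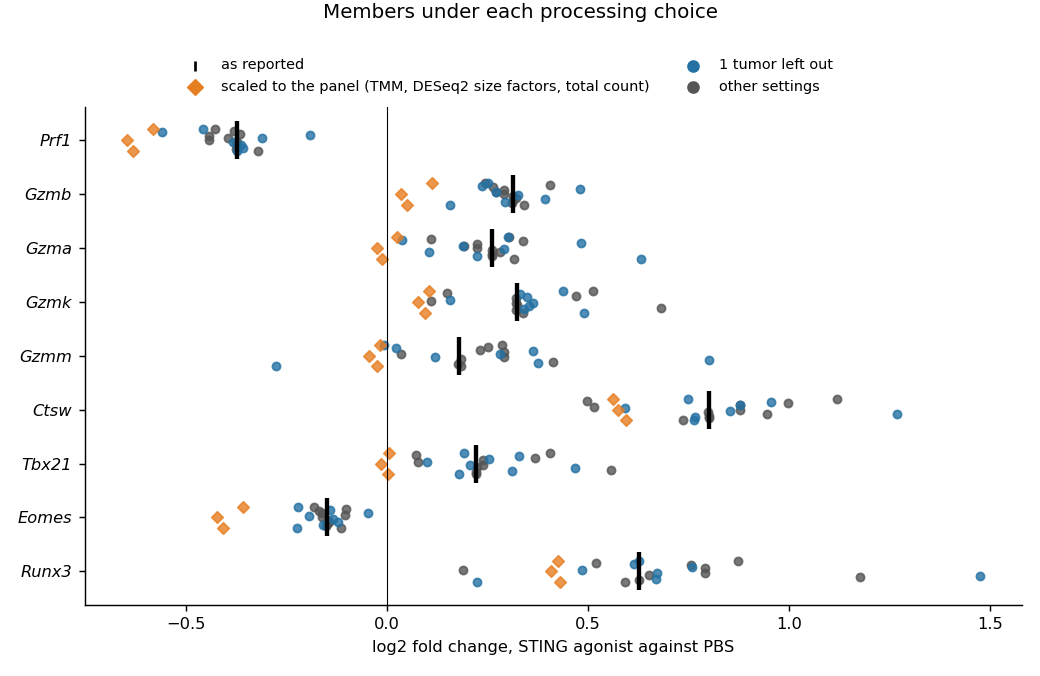
Log2 fold change (x axis) of each of the 9 genes as reported (black bar), scaled to the bulk of the panel (orange), with 1 tumor left out (blue) and under the other settings (grey). Prf1 and Eomes stay below 0 and Gzmb, Gzmk, Ctsw and Runx3 above 0 in every setting shown, while Gzma, Gzmm and Tbx21 cross 0.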

How the data were processed

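RNA of 4 PBS-treated and 4 STING agonist-treated tumors was measured by the authors on the nCounter PanCancer Immune Profiling mouse panel, and the deposited values are raw counts of 784 probes (750 genes, 20 housekeeping genes, 8 negative and 6 positive controls), neither scaled nor background-subtracted. Groups and replicate numbers came from the sample labels, and dose, number of injections, time of collection and age from the study's text. Tumors had 241506 to 414698 counts over the 750 genes, so genes near background carry a large counting error.

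Counts were scaled by the geometric mean of the housekeeping genes, controls 2 and 4 were averaged and rounded, and groups were compared with edgeR 4.0.16 (quasi-likelihood test, R 4.3.3) without a filter or covariate, with Benjamini-Hochberg adjustment over 750 genes. The test was tested on simulated data. Exact permutation tests were two-sided, on log2(normalized count + 1) (Python 3.11.15, scipy 1.17.1). The 9 genes and the gene lists were chosen with earlier results of these data known. Named were the 9 genes, the 3 genes of lowest unadjusted p in each list, a set of fixed markers, and the 3 genes most like each of the 9 among those averaging 20 counts or more. For some genes of this rule no single value is given here. All 9 probes matched their symbol through the RefSeq transcript table (GRCm38.p6).

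Alternatives were TMM normalization, size factors of DESeq2, total count, scaling to positive controls or to housekeeping genes of 100 or more counts, removal of genes averaging under 20 counts, subtraction of negative controls, limma 3.58.1 with pseudocounts of 1 and 20, DESeq2 1.42.0 with its Wald test, a per-gene test named in the study's methods, all 8 tumors separate, each tumor or controls 2 and 4 left out, and the replicate number as a block. Leaving samples out of the ratios was added after seeing the data. Other measurements of the study were not used here.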

Additional observations from a re-analysis of the deposited data

Results flagged for a closer look

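Of 65 named genes, 6 had 1 treated tumor that stood apart from the other 3: its distance to the nearest of them, divided by the distance between highest and lowest, passed the 95% limit of Dixon's test. Chance puts about 1 in 20 genes past that limit, 3.25 of 65. The PBS group, with 3 samples, was not tested. Among the 9 genes it was Gzmb, lowest in STING agonist 2 with a quotient of 0.873. Traf6, 1 of the genes most like Gzma, was also lowest in STING agonist 2 (0.945). The hepatocyte genes Ambp (0.988), F12 (0.951) and Hamp (0.982) were highest in STING agonist 4. Gata3, the factor of type 2 helper cells, was lowest in STING agonist 4 (0.848). The causes were not tested.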

How the results depend on the processing

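Over 21 or 22 alternatives per gene, 0 of the 9 genes reached an adjusted p under 0.05, and Gzmb, Gzmk, Prf1, Ctsw, Eomes and Runx3 kept their direction. The cause of the other changes was not tested. With TMM normalization, log2 fold changes below 0 were those of Gzma (-0.0121) and Gzmm (-0.0241), besides Prf1 and Eomes. DESeq2 size factors gave Gzma -0.0251, Gzmm -0.0445 and Tbx21 -0.0150, and total count gave Gzmm -0.0171. Leaving out 1 tumor gave Gzmm -0.27 (without PBS 1) to 0.80 (without PBS 3). The permutation difference of Gzma became -0.0189 and -0.0335 under TMM normalization and DESeq2 size factors. With 3 PBS and 4 STING agonist samples these tests cannot give a p under 0.05. They were not run where a left-out sample leaves fewer arrangements. Of the 9 genes, 1 had an unadjusted p under 0.05 with TMM normalization, DESeq2 size factors or all 8 tumors separate (127, 126 and 201 of the 750 panel genes), and 0 to 2 did with 1 tumor left out (2 without PBS 3). Groups did not overlap in 1 of the 9, Eomes, with TMM normalization, DESeq2 size factors or total count. The panel's own number on these scalings is not given here, so this count has no background to be read against. With 1 tumor left out the groups did not overlap in 0 to 2 of the 9. On the panel, 84 (without STING agonist 1) to 160 (without PBS 3) genes had an unadjusted p under 0.05 with 1 tumor left out. With an adjusted p under 0.05 there were 52 in the Wald test of DESeq2, and 0 to 7 with 1 tumor left out (7 without STING agonist 3). Groups did not overlap in 80 genes scaled to positive controls and in 131 to 253 with 1 tumor left out. Of genes with an unadjusted p under 0.05, 93.0% were higher with housekeeping scaling, 68.5% with TMM normalization, 64.3% with DESeq2 size factors and 68.7% with total count. The number of T cell receptor genes with an unadjusted p under 0.05 moved in 10 of 22 alternatives. The same number moved in 8 for the inducing genes, 6 for plasmacytoid dendritic cell markers and 18 for hepatocyte markers. For each remaining list it moved in 5 or fewer. Other named genes changed sign. Ncr1 and Kit became -0.12 and -0.0942 (TMM normalization), -0.14 and -0.11 (DESeq2 size factors), and -0.11 and -0.0416 (total count). Cd4 became 0.14 after subtraction of negative controls and 0.21 with all 8 tumors separate. With 1 tumor left out, Cd4 ran from -0.39 to 0.45, Ncr1 from -0.0412 to 0.22, Fasl from -0.10 to 1.01, Kit from -0.15 to 0.34, Cr2 from -0.28 to 0.62 and Hamp from -0.0580 to 3.89.

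The replicate numbers did not pair the samples. Deviations of same-numbered tumors from their group means had r = -0.06, -0.08, -0.28 and -0.13. With the replicate block, all 8 tumors separate, 0 of the 9 genes had an unadjusted p under 0.05, 172 panel genes did, 0 passed after adjustment, Prf1 was -0.43, Ctsw 1.12 and Cd4 0.25.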
